A study of Homo sapiens with 12 samples.

Results

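The comparison described here is the response to tumour necrosis factor α (TNFα) in cells that also received apigenin. It sets 3 arrays of cells given both agents against 3 arrays of cells given apigenin alone, which is 6 of the 12 arrays of the study. All 12 arrays were hybridised with total RNA from MDA-MB-231, an established human line of triple-negative breast cancer, and 3 arrays each came from untreated cells, cells with TNFα at 40 ng/ml, cells with apigenin at 40 µM and cells with both, all after 24 h. The agents were prepared in HBSS, a balanced salt solution, and were stated to be at doses that do not kill the cells; the sources used here do not say what untreated cells received in their place. The labels number the samples of a group but name no separate cultures, so a p-value here covers the spread among these samples of a single cell line, which may be technical. Of 53617 probe sets on the array, 23871 carried exactly 1 gene symbol, and after a filter on low values they gave 20572 genes; 1823 other symbols did not pass it.

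TNFα binds TNFR1 on the cell surface, and a complex of adaptor proteins and ubiquitin ligases then activates the IκB kinases, which release the transcription factor NF-κB to the nucleus. NF-κB switches on genes of inflammation and survival and, with them, its own inhibitors, which end the signal. Apigenin is a flavone of parsley and celery, widely studied as an inhibitor of kinase and NF-κB signalling in tumour cells. The comparison therefore addresses which TNFα-responsive genes still responded while apigenin was present. TNFα alone against untreated cells, which uses the other 6 arrays and so shares none, is given beside it.

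Markers of the labelled cell line were high on the arrays, and some epithelial markers were too. Of 11 measured markers of MDA-MB-231 cells, 10 lay above the 75th percentile of their array on all 6 arrays, among them VIM, CD44, AXL and EGFR. Of the leukocyte markers 1 of 13 did (CD68, which is also found outside leukocytes), and none of the 9 fibroblast and endothelial markers; the mean leukocyte level ran from 2.63 to 2.67 with apigenin and from 2.62 to 2.78 with both, and the mean fibroblast and endothelial level from 2.15 to 2.26 and from 2.23 to 2.27. Of the epithelial and luminal markers 6 of 15 lay above that percentile (GATA3, KRT19, EPCAM, CLDN3, CLDN7 and XBP1), and 2, PGR and CDH1, lay below the median of all 6 arrays. The 6 arrays correlated at r = 0.988 to 0.991 across genes within a group and at 0.985 to 0.990 between the groups, and none of the arrays duplicated another. On the second principal component of all 12 arrays, with 18.8% of the variance, the array numbered 3 had the lowest score in each group. Values are log2 expression values; array medians ran from 2.091 to 2.159 and the highest value was 12.495, so a gene near 2 sits at the median of the array and a difference of 1 is a doubling.

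With apigenin present, TNFα raised a small set of genes led by the NF-κB pathway itself. Of 20572 genes, 43 (0.209%) were called higher with both agents than with apigenin, at a Benjamini-Hochberg adjusted p below 0.05 in limma, and 22 of them (0.107%) differed at least 2-fold. None of these genes was called lower in this fit. Quantile normalisation and trended and robust variance each called 2 lower. The replicate block and the fits without apigenin array 2 or 3 each called 1 lower. Among probe sets without a gene symbol, fitted apart, 1 was called lower. At an unadjusted p below 0.05 there were 1177 genes higher (5.72%) and 312 lower (1.52%). The largest differences were in TNFAIP3, TRAF1, CXCL8, NFKBIE and TNFRSF9, all of them textbook NF-κB target genes. Each array reads a bulk RNA sample, so a change in all cells and a change in a share of them cannot be told apart. The 43 were called on these same arrays, so their levels describe the call and add no support to it: the lowest array with both agents read above the highest with apigenin in each of them (in 10.4% of all genes), and their median on an array was at most 5.02 with apigenin and at least 6.09 with both. The count moved with single arrays: it was 15 without apigenin array 1, 19 without apigenin array 2, 23, 19 and 18 without arrays 1, 2 and 3 of the combined treatment, and 15 without the 4 arrays numbered 3, an alternative added after the values were seen. Of the 43 genes, 13 kept their call in all 15 alternative fits: TNFAIP3, TRAF1, CXCL8, NFKBIE, TNFRSF9, PTX3, LACC1, ICAM1, TNIP1, ADAMTS9, IRAK2, CD83 and HIVEP2. The other 30 lost it in at least 1 fit, with the same sign throughout. Over the 43 genes the median number of fits that kept the call was 9 of 15. Only 14 genes kept it in all 6 fits that left out 1 array. Among genes described below, VEGFC kept it in 10 of the 15, IL7R in 9, RELB in 8, TNFAIP2 in 7 and CDK6 in 6. TNFAIP2 and CDK6 kept it in 0 of the 6 fits without 1 array.

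**Figure D1:**
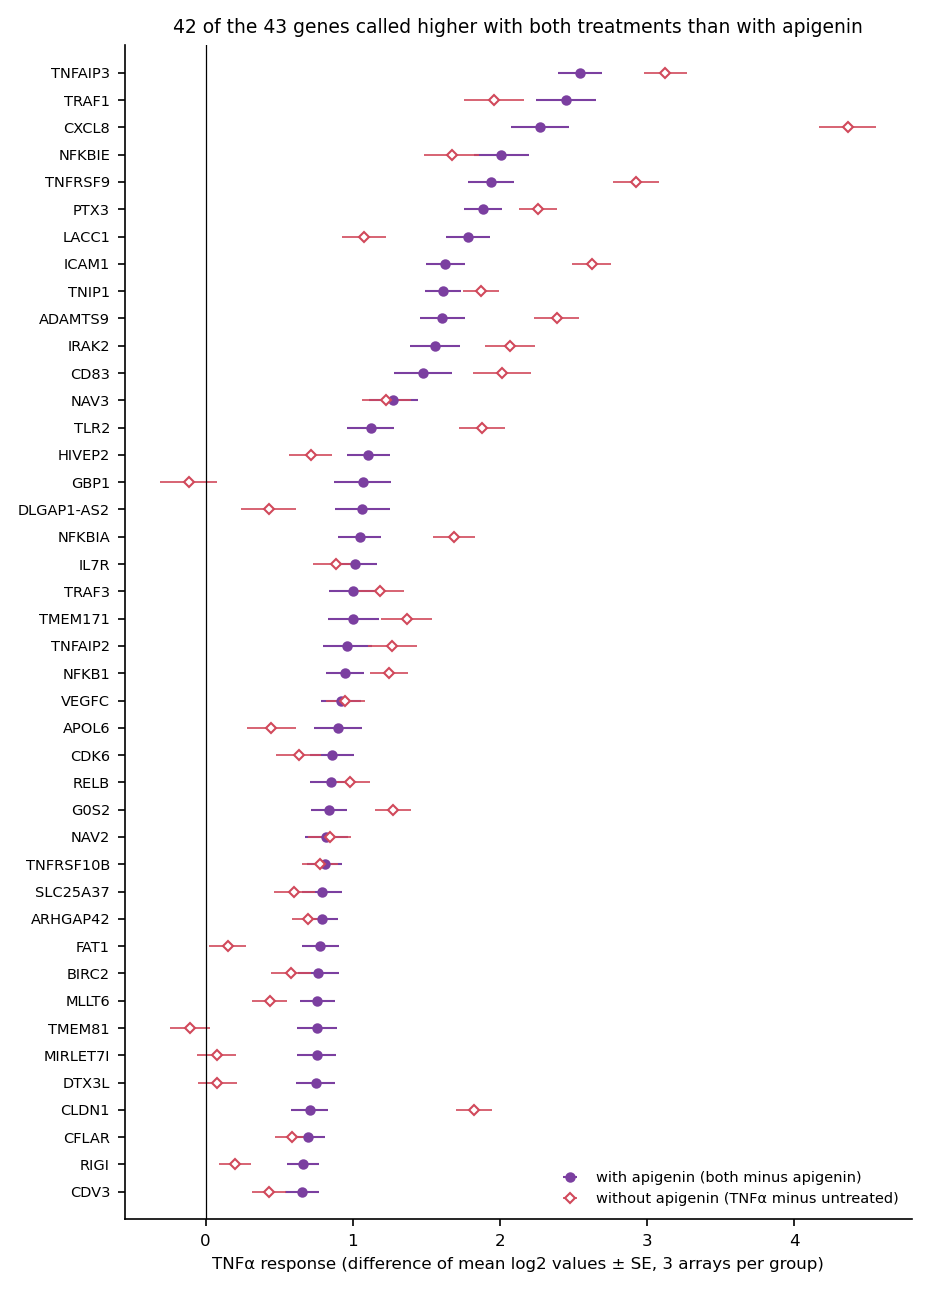
TNFα response of 42 of the 43 genes called higher with both agents than with apigenin. The horizontal axis gives the difference of mean log2 values with its standard error (3 arrays per group): filled circles stand for both agents minus apigenin, open diamonds for TNFα minus untreated cells. The filled circles run from 2.54 for TNFAIP3 to 0.65 for CDV3, while the open diamonds of CXCL8 and CLDN1 lie far to their right and those of GBP1 and TMEM81 lie just below 0.

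Because most of the leading genes are known NF-κB targets, their promoter sequences were searched for the κB consensus, the 10-letter site that NF-κB dimers bind. The windows were those of RefSeq (GRCh38.p14), 250 bases before to 50 after each annotated start, on both strands; 35 of the 43 genes had a window. The consensus was found in 12 of the 35 (34.3%), against 1262 of 14711 genes tested that had a window (8.58%) and 1937 of 27305 genes of the whole promoter table (7.09%). Of the genes called with TNFα alone but not with apigenin present, 27 of 103 held it (26.2%). The AP-1 site TGANTCA stood in 4 of the 35 (11.4%), in 8.12% of genes tested, in 9.37% of the whole table and in 17 of those 103 (16.5%). These are matches of letters, with no test, and say nothing of binding in these cells. Of the 5 genes with the largest differences, TNFAIP3 and TNFRSF9 held the κB consensus, TRAF1 and CXCL8 had windows without a match, and NFKBIE was not among the genes with a window. The 8 stretches below show the match in capitals in genes chosen for their different roles, namely 3 feedback inhibitors, an NF-κB subunit, an adaptor, a receptor, a secreted protein and an RNA sensor; LACC1, CD83, CFLAR and FAT1 also held a match. The stretches are written 5′ to 3′ along the gene, with up to 30 bases on each side, all upstream of the start.
TNFAIP3: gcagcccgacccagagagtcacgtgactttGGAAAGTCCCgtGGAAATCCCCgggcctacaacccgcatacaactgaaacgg
TNIP1: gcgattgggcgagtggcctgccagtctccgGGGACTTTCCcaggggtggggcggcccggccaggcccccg
NFKBIA: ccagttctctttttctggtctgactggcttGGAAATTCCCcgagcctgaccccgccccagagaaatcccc
NFKB1: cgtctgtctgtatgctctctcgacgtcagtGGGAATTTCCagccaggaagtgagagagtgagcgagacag
TRAF3: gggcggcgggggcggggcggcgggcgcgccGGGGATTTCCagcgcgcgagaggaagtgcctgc
TNFRSF9: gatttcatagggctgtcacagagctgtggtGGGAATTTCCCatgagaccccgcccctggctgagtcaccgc
PTX3: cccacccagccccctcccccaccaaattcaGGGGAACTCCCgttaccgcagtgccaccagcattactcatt
RIGI: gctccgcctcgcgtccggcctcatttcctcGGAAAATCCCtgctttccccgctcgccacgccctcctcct
They lie at chr6:137867162-137867243 (plus strand), chr5:151081037-151081106 (minus), chr14:35404791-35404860 (minus), chr4:102501280-102501349 (plus), chr14:102777386-102777448 (plus), chr1:7940873-7940943 (minus), chr3:157436723-157436793 (plus) and chr9:32526233-32526302 (minus), in the order printed. The TNFAIP3 stretch holds 2 matches, the nearest 46 bases before the start, and its neighbours in the list hold theirs within 100 bases of it. In TNFRSF9 and PTX3 the capitals cover 2 overlapping matches, 1 on each strand.

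The feedback inhibitors of NF-κB included the largest increase of the comparison. TNFAIP3, which encodes the ubiquitin-editing enzyme A20, read 3.31, 3.11 and 3.52 on the apigenin arrays and 5.80, 5.81 and 5.96 with both. All 3 arrays with both agents were more than 2 log2 units above all 3 with apigenin, a 5.83-fold difference (2.54 on the log2 scale, SE 0.15, adjusted p = 2.69e-06). NFKBIE, which encodes the inhibitor IκBε, read 4.03, 4.33 and 4.70 with apigenin and 6.44, 6.15 and 6.49 with both (2.01, SE 0.19, adjusted p = 0.000133). TNIP1, a ubiquitin-binding partner of A20, read 5.31, 5.24 and 5.46 against 7.0, 6.82 and 7.04 (1.62, SE 0.12, adjusted p = 2.9e-05). In both genes the groups were apart by more than 1 log2 unit. NFKBIA, which encodes IκBα, the first inhibitor to be resynthesised after a TNFα pulse, stood higher at the start and rose less, from 7.0, 6.77 and 7.0 to 8.03, 7.97 and 7.92 (1.05, SE 0.15, adjusted p = 0.00702). These 4 were the called members among 14 measured (0.209% of all genes were called higher). All 14 had a difference at or above 0.00, where 11973 of all 20572 genes were positive. Their median was 0.49 against 0.03 over all genes. The deubiquitinase CYLD (0.76, adjusted p = 0.14) and the atypical IκB proteins BCL3 (0.56) and NFKBIZ (0.51) did not pass. In an alternative fit with the replicate number as a block, CYLD was called.

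**Figure D2:**
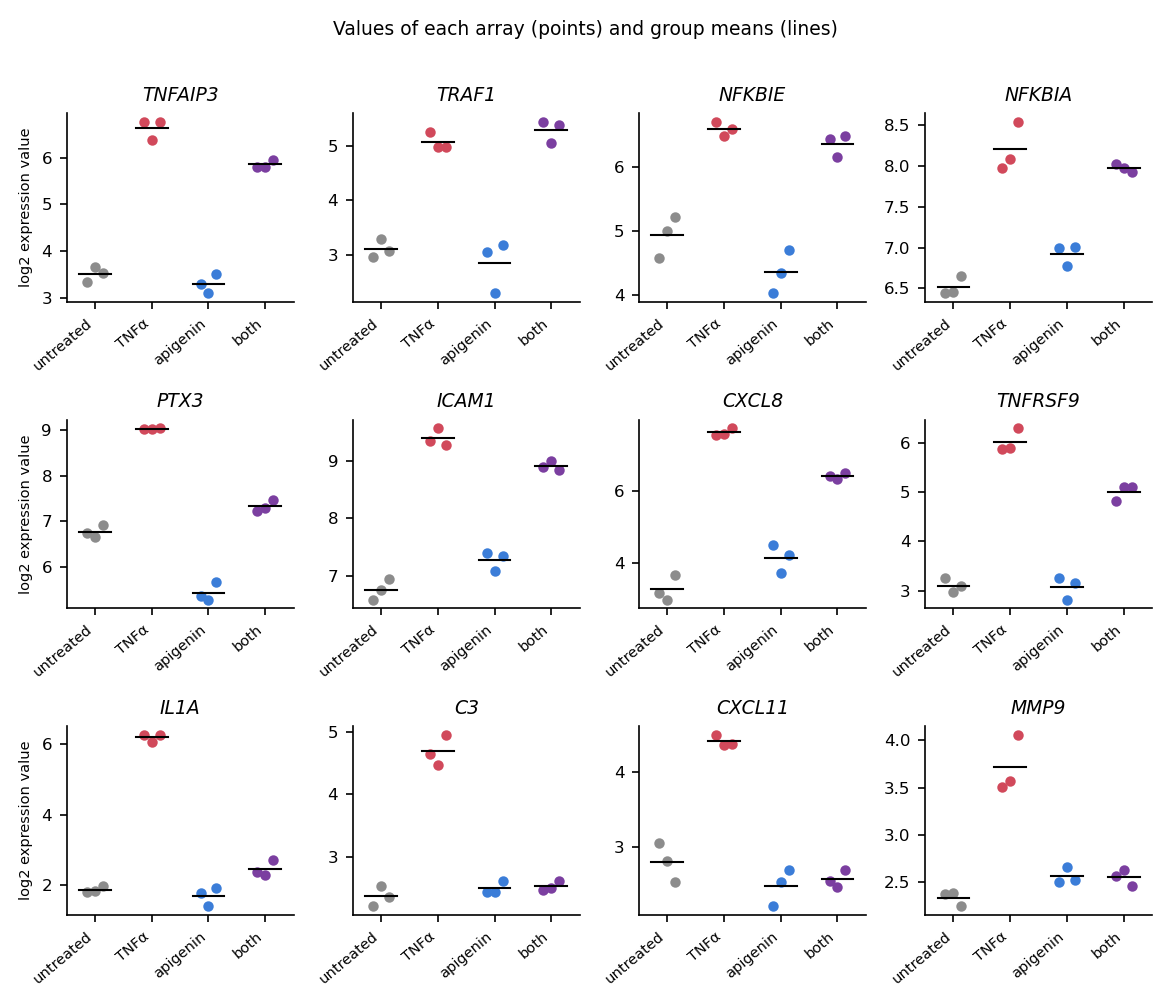
Log2 expression values of 12 genes on each array (points) with group means (lines) for untreated cells, TNFα, apigenin and both agents; each panel has its own vertical axis. In the first 8 panels the points for both agents lie above all points for apigenin, and in TRAF1 the mean for both agents (5.29) lies above that for TNFα alone (5.07). In IL1A, C3, CXCL11 and MMP9 the points for TNFα alone stand apart from the other 3 groups.

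Among the genes of the TNF receptor complex, TRAF1, TRAF3, BIRC2 and CFLAR were called higher, and the receptor gene TNFRSF1A was not. TRAF1, an adaptor that binds TRAF2 and the cIAP ligases, read 3.06, 2.30 and 3.19 with apigenin and 5.45, 5.06 and 5.38 with both (2.45, SE 0.20, 5.46-fold, adjusted p = 4.08e-05). The apigenin arrays spread widely here (SD 0.48), and the groups were still apart by more than 1.5 units. TRAF3, which restrains the non-canonical NF-κB pathway, rose 2.01-fold (1.0, SE 0.17, adjusted p = 0.0269), from 4.50, 4.20 and 4.76 to 5.57, 5.39 and 5.50. BIRC2, which encodes the ubiquitin ligase cIAP1, read 6.96, 6.65 and 6.90 against 7.63, 7.52 and 7.66 (0.77, SE 0.14, adjusted p = 0.0428). CFLAR, which encodes the caspase-8 inhibitor c-FLIP, read 3.35, 3.38 and 3.44 against 4.15, 3.90 and 4.20 (0.69, SE 0.12, adjusted p = 0.0358). These 4 of 17 measured members were called, where 0.209% of all genes were, and the median of the 17 was 0.22 against 0.03 over all genes. The receptor gene TNFRSF1A itself read 5.67 ± 0.29 (mean log2 value ± SD, n = 3) with apigenin and 5.53 ± 0.21 with both. Of the 4 called genes, TRAF1 kept its call in all 15 alternatives, TRAF3 in 7, and BIRC2 and CFLAR in 6 each. The adaptor genes TRADD (0.07), FADD (0.09) and TRAF5 (-0.04) were not called. TNFRSF1B, TRAF2, RIPK1, BIRC3 and RNF31 had no probe set with exactly 1 symbol and could not be read here.

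Of the 5 NF-κB subunit genes, NFKB1 and RELB rose (0.209% of all genes were called higher). NFKB1, which encodes p105 and p50, read 5.94, 6.02 and 6.14 with apigenin and 6.93, 6.88 and 7.14 with both (0.95, SE 0.13, adjusted p = 0.00603). RELB, a partner of p52, read 3.26, 3.71 and 3.54 against 4.34, 4.38 and 4.33 (0.85, SE 0.14, adjusted p = 0.0255). NFKB2, which encodes p100 and p52, differed by 1.22, more than either, but its arrays spread more within a group (SD 0.50 with apigenin and 0.30 with both), and it did not pass (SE 0.28, adjusted p = 0.147). With the replicate number as a block NFKB2 was called, though the labels state no pairing. REL differed by 0.43 and RELA by 0.20, and neither passed. The median on an array over the 5 genes was 4.53, 4.53 and 4.93 with apigenin and 5.56, 5.36 and 5.94 with both. None of the 9 IκB kinases and partners was called. IKBKE, an inducible IκB kinase relative, read 2.33, 3.60 and 3.54 with apigenin and 4.27, 4.06 and 4.51 with both (1.12, SE 0.27, adjusted p = 0.199). Its groups did not overlap, and the apigenin array 1 read more than 1 unit below the other two.

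Receptors and sensors of the cell surface and cytoplasm followed. TNFRSF9, the costimulatory receptor 4-1BB, read 3.24, 2.82 and 3.15 with apigenin and 4.82, 5.10 and 5.11 with both (1.94, SE 0.16, 3.84-fold, adjusted p = 4.08e-05). TNFRSF10B, the TRAIL death receptor DR5, read 5.51, 5.31 and 5.50 against 6.16, 6.26 and 6.33 (0.81, SE 0.12, adjusted p = 0.0119). They were the called 2 of 23 members of the TNF receptor superfamily (0.209% of all genes were called), whose median was 0.16. TLR2, a receptor for bacterial lipoproteins, rose by 1.12 (SE 0.16, adjusted p = 0.00729), from 3.13 ± 0.23 to 4.25 ± 0.12. IRAK2, a kinase that Toll-like and IL-1 receptors recruit, rose by 1.56 (SE 0.17, adjusted p = 0.000658), from 4.02 ± 0.19 to 5.58 ± 0.03. All arrays with both agents read above all apigenin arrays in these genes. IL7R, the interleukin-7 receptor chain, rose by 1.01 (SE 0.15, adjusted p = 0.0135). TNFAIP2, a gene named for its induction by TNFα, rose by 0.96 (SE 0.17, adjusted p = 0.0358).

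Secreted inflammatory proteins gave 1 call among 24 chemokines and 1 among 34 cytokines and growth factors, where 0.209% of all genes were called higher. CXCL8, the neutrophil chemoattractant interleukin-8, read 4.48, 3.72 and 4.22 with apigenin and 6.41, 6.32 and 6.51 with both, a 4.83-fold difference (2.27, SE 0.19, adjusted p = 5.1e-05), and it was the chemokine called. CXCL1, another neutrophil attractant, read 2.96, 2.96 and 3.23 against 4.01, 4.06 and 4.35, with groups well apart. It missed the threshold (1.09, SE 0.21, adjusted p = 0.0719). It passed in other fits, among them quantile normalisation, the replicate block, the 6 compared arrays alone and the fit without the arrays numbered 3. CXCL2 differed by 1.06, with overlapping groups (adjusted p = 0.367). The T cell attractants CXCL10 (0.23) and CXCL11 (0.09) and the monocyte attractant CCL2 (0.02) had overlapping groups, with CCL2 at 1.79, 1.67 and 1.65 with apigenin and 1.85, 1.79 and 1.54 with both, below the median of the arrays. Over the 24 chemokines the median difference was 0.06. VEGFC was the cytokine or growth factor called. It encodes a growth factor of lymphatic vessels and rose by 0.92 (SE 0.14, adjusted p = 0.0103), from 6.18, 6.13 and 6.29 to 7.0, 7.16 and 7.20. IL6 differed by 0.53 (adjusted p = 0.755) and IL1B by 0.13 (adjusted p = 0.983).

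Among surface and matrix genes, 2 of 19 immune adhesion genes, 1 of 18 complement and acute phase genes and 1 of 42 matrix protease and invasion genes were called, where 0.209% of all genes were. ICAM1, the leukocyte adhesion molecule, read 7.40, 7.09 and 7.35 with apigenin and 8.89, 8.99 and 8.85 with both (1.63, SE 0.13, 3.09-fold, adjusted p = 4.08e-05). CD83, an immunoglobulin-family protein best known from dendritic cells, read 4.96, 4.49 and 5.02 against 6.24, 6.42 and 6.25 (1.48, SE 0.20, adjusted p = 0.00588). PTX3, a soluble pattern-recognition protein, read 5.36, 5.29 and 5.67 against 7.22, 7.29 and 7.47 (1.89, SE 0.13, adjusted p = 1.1e-05). The 3 genes each had their groups apart by more than 1 unit. ADAMTS9, a secreted matrix protease, rose from 4.31 ± 0.25 to 5.92 ± 0.08 (1.61, SE 0.15, adjusted p = 0.000148), in a list whose median was 0.01. The collagenase MMP1 (7.79 ± 0.27 against 7.78 ± 0.12) and the gelatinase MMP9 (2.56 ± 0.09 against 2.55 ± 0.09) differed by -0.01 each. CLDN1, a tight junction protein, rose by 0.71 (SE 0.12, adjusted p = 0.0358), from 3.05, 3.06 and 2.96 to 3.69, 3.69 and 3.81, and it lost its call in 10 of the 15 alternatives. Complement C3 read 2.45, 2.44 and 2.62 with apigenin and 2.47, 2.50 and 2.62 with both, overlapping throughout (0.03, SE 0.14, adjusted p = 0.991).

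LACC1, an enzyme of purine metabolism in inflammatory macrophages, rose from 4.31, 3.83 and 4.20 to 5.90, 5.82 and 5.97 (1.78, SE 0.15, 3.45-fold, adjusted p = 4.08e-05). The zinc-finger transcription factor HIVEP2, which binds κB-like DNA, rose by 1.10 (SE 0.15, adjusted p = 0.00526) and the neuron navigator NAV3 by 1.28 (SE 0.17). The cell cycle kinase CDK6 rose by 0.86 (SE 0.15, adjusted p = 0.0358), as the called 1 of 62 G1/S and DNA replication genes (0.209% of all genes were called). The 11 called genes outside the naming rule are named here after their values were seen. They were the lipolysis inhibitor G0S2 (0.84), the navigator NAV2 (0.82), the mitochondrial iron importer SLC25A37 (0.79), ARHGAP42 (0.79), the cadherin FAT1 (0.78), MLLT6 (0.76), TMEM171 (1.0), TMEM81 (0.76), CDV3 (0.65), the antisense transcript DLGAP1-AS2 (1.07) and the let-7i locus MIRLET7I (0.75).

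MIRLET7I was a microRNA gene among the calls. It read 2.17, 2.25 and 2.40 with apigenin and 2.93, 3.15 and 3.00 with both (0.75, SE 0.13, adjusted p = 0.0358), all above the array medians of 2.091 to 2.159. With TNFα alone it read 2.34 ± 0.12, against 2.26 ± 0.21 in untreated cells. The difference between the responses with and without apigenin was 0.68 (SE 0.19, adjusted p = 0.923 in limma) and was not called. The call of MIRLET7I held in 6 of the 15 alternatives, and in 0 of the 6 that left out 1 array. The let-7 family is known for repressing growth-promoting transcripts, and the mature strand, given by RefSeq (GRCh38.p14, chr12:62603691-62603712, plus strand), is shown because its seed, bases 2 to 8 in capitals, is what defines the family.
hsa-let-7i-5p: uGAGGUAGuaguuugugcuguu
A whole-transcript probe set of total RNA can read the primary or hairpin transcript, and which form was measured was not tested.

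Interferon-stimulated genes, the antiviral set that interferons switch on, gave 4 calls of 55, where 0.209% of all genes were called higher, with a median of 0.09 against 0.03 over all genes. GBP1, a guanylate-binding protein, read 2.22, 1.91 and 2.58 with apigenin and 3.22, 3.29 and 3.40 with both (1.07, SE 0.19, adjusted p = 0.0421). RIGI, the cytoplasmic sensor of viral RNA, read 6.31, 6.27 and 6.40 against 7.01, 6.92 and 7.02 (0.66, SE 0.11, adjusted p = 0.0269). DTX3L, a ubiquitin ligase, read 5.30, 5.25 and 5.57 against 6.09, 6.08 and 6.19 (0.75, SE 0.13, adjusted p = 0.039). The fourth was APOL6, an intracellular apolipoprotein L, at 4.37 ± 0.40 against 5.27 ± 0.10 (0.90, SE 0.17, adjusted p = 0.0472). PARP14, a mono-ADP-ribosyltransferase, missed the threshold (1.17, SE 0.22, adjusted p = 0.0541). It passed in other fits, among them quantile normalisation, trended and robust variance, and the replicate block. Groups were apart upwards in 14 of the 55 genes (10.4% of all genes) and downwards in 3 (3.77% of all genes), where IFI6 read -0.33, RSAD2 -0.25 and LGALS3BP -0.35. None of these 4 calls kept its side of the threshold in every alternative: GBP1, RIGI and DTX3L were called in 7 of 15 fits and APOL6 in 6.

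With TNFα alone none of the 55 interferon-stimulated genes was called higher and 1 was called lower. Over all genes 0.778% were called higher and 0.219% lower, so a count of none among 55 is near that share. RIGI read 7.75 ± 0.13 in untreated cells, 7.95 ± 0.08 with TNFα, 6.32 ± 0.07 with apigenin and 6.99 ± 0.05 with both. With both agents it thus stayed below the untreated level. GBP1 and DTX3L with both (3.30 ± 0.09 and 6.12 ± 0.06) read above the untreated means of 2.93 ± 0.34 and 5.51 ± 0.20. SAMD9L, an interferon-induced antiviral factor, differed from TNFα alone in direction: it went from 6.27 ± 0.24 to 5.59 ± 0.15 without apigenin and from 4.38 ± 0.25 to 5.07 ± 0.10 with it. The difference of the responses was 1.37 (SE 0.22, adjusted p = 0.0489), while neither response passed on its own (adjusted p = 0.0577 and 0.154), and the interaction call held in 4 of 20 alternatives. With the replicate block the response of SAMD9L with apigenin was called.

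**Figure D3:**
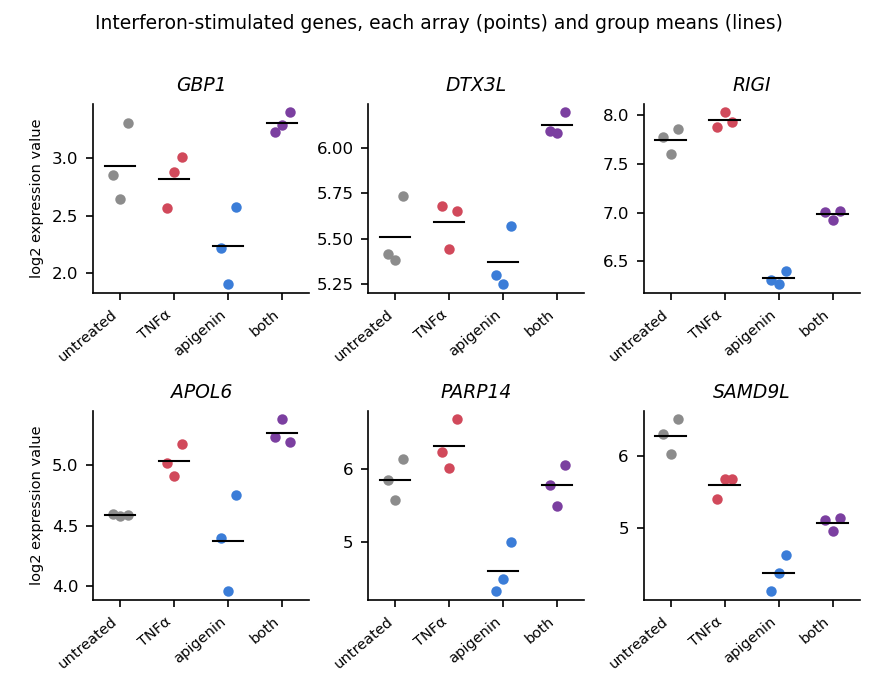
Log2 expression values of 6 interferon-stimulated genes on each array (points) with group means (lines); each panel has its own vertical axis. The points for both agents lie above those for apigenin in all 6 panels. In GBP1, DTX3L and APOL6 the mean for both agents is the highest of the 4 groups, in RIGI, PARP14 and SAMD9L it lies below the untreated mean.

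The core of the interferon-stimulated response element, a pair of GAAA half-sites 2 bases apart on either strand, was searched in the same promoter windows. Of the 9 genes with a window that were called only with apigenin present, 3 (33.3%) held it: GBP1, MLLT6 and DTX3L. MLLT6 is not in the list of interferon-stimulated genes. Of the called genes of that list, RIGI had a window without a match, and no match was found for APOL6. None of the 26 called both with and without apigenin held it, while 8 of the 103 called with TNFα alone only did (7.77%), against 3.96% of genes tested and 4.38% of the whole table. The GBP1 stretch is printed because its match, in capitals on the strand opposite to the gene, lies 118 bases before the start, at chr1:89065296-89065365 of the minus strand.
GBP1: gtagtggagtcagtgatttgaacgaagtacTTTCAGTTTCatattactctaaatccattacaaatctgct
The counts are of few genes, no test was made of them, and the match in DTX3L spans the start itself.

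Set beside TNFα alone, the response with apigenin had fewer calls. TNFα against untreated cells gave 160 genes higher (0.778%) and 45 lower (0.219%); with quantile normalisation these were 181 and 123. The 205 calls became 98 without untreated array 1, 131 without untreated array 2, 103 without TNFα array 1, 314 without TNFα array 2, 107 without TNFα array 3 and 85 without the arrays numbered 3. Of the 43 genes, 30 were also called higher with TNFα alone, which is 69.8% of the 43 and 18.8% of the 160. The median of the 43, which were picked by their response with apigenin, was 1.0 with it and 0.99 without it. Of the 43, 23 were larger with apigenin and 20 smaller. Without apigenin 41 were positive, and the share of all genes positive there was not counted. TRAF1 differed by 2.45 with apigenin and 1.96 without, NFKBIE by 2.01 and 1.67, NAV3 by 1.28 and 1.23, VEGFC by 0.92 and 0.95, and TNFRSF10B by 0.81 and 0.78. ICAM1 (1.63 and 2.63), TNFRSF9 (1.94 and 2.93) and NFKBIA (1.05 and 1.69) differed more without apigenin. None of these 8 was called for a difference between the responses; the adjusted p was 0.174 for ICAM1 and 0.395 for TNFRSF9.

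The 13 genes not called with TNFα alone included 4 interferon-stimulated genes, GBP1, RIGI, DTX3L and APOL6, and CDK6 and BIRC2. Of the 13, 7 had a positive difference at an unadjusted p below 0.05 without apigenin. The share of all genes at that threshold was not counted, so the 7 only describe these genes. GBP1 differed by -0.11 without apigenin and 1.07 with it, an interaction of 1.18 (SE 0.27, adjusted p = 0.47). TMEM81 differed by -0.11 and 0.76 (interaction 0.86, SE 0.19, adjusted p = 0.395), and FAT1 by 0.15 and 0.78 (interaction 0.63, SE 0.18, adjusted p = 0.923). None of the 13 passed the interaction test, so a response particular to cells with apigenin was not shown for any of them.

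**Figure D4:**
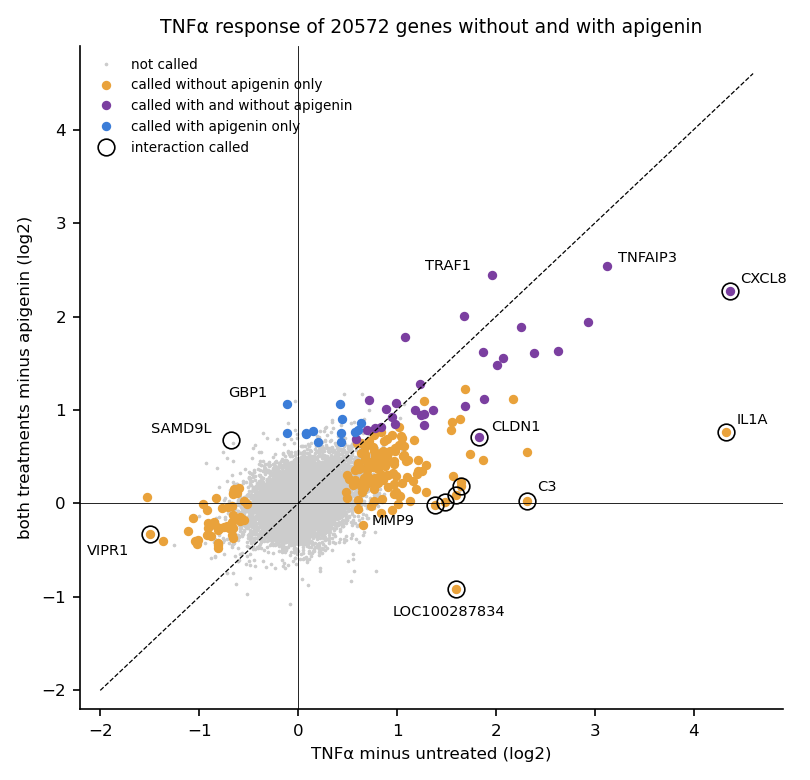
TNFα response of 20572 genes without apigenin (horizontal axis, TNFα minus untreated) and with it (vertical axis, both agents minus apigenin), as differences of mean log2 values; the dashed line marks equal responses. Purple points are called in both, orange without apigenin only, blue with apigenin only, and black rings mark the 11 genes called in the interaction. IL1A lies at 4.33 and 0.76, C3 at 2.31 and 0.03, and TRAF1 above the dashed line.

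In the other direction, the genes called higher with TNFα alone had smaller differences when apigenin was present. Of the 160, 152 were positive with apigenin, as were 11973 of all 20572 genes. Among the 160, groups were apart upwards in 115 (10.4% of all genes), and 104 had an unadjusted p below 0.05 in that direction (5.72% of all genes). Their median was 0.90 without apigenin and 0.44 with it, and 148 of them were smaller with it. Of the 45 called lower, 37 were negative with apigenin, with medians of -0.77 and -0.20. Since these genes were picked by their size without apigenin, a smaller size in the other arrays is partly set by that choice and is no test. The interaction tests the difference itself, and it was called for 11 genes (0.0535%). It was negative in 9 of them (0.0437%). In VIPR1 and SAMD9L it was positive: VIPR1 fell less with apigenin, and SAMD9L differed in the opposite direction. At an unadjusted p below 0.05 there were 870 genes (4.23%). The count was 2 to 6 when any 1 of the 12 arrays was left out and 2 without the 4 arrays numbered 3.

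IL1A, which encodes the alarm cytokine interleukin-1α, had the largest interaction. It read 1.80, 1.84 and 1.98 in untreated cells, 6.27, 6.07 and 6.25 with TNFα, 1.78, 1.41 and 1.93 with apigenin, and 2.37, 2.30 and 2.73 with both. The response of 4.33 (SE 0.15) without apigenin and 0.76 (SE 0.15, adjusted p = 0.0789) with it differed by -3.57 (SE 0.21, adjusted p = 4.68e-06). The arrays with both agents still stood above all apigenin arrays, and the replicate block called this smaller response. C3, the central complement protein, read 2.22, 2.54 and 2.37 in untreated cells and 4.64, 4.46 and 4.95 with TNFα, against the overlapping values given above, an interaction of -2.29 (SE 0.20, adjusted p = 0.0002). IL1A and C3 kept this call in all 20 alternatives. CXCL8 changed in both settings, by 4.36 and 2.27, and the difference was called (-2.09, SE 0.28, adjusted p = 0.0218), though it held in 10 of 20 alternatives. The starting levels of CXCL8 differed too, at 3.26 ± 0.35 in untreated cells and 4.14 ± 0.39 with apigenin. On all arrays with both agents (6.41 ± 0.10) it read below all arrays with TNFα alone (7.63 ± 0.10).

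The other interaction calls held in fewer alternatives, between 4 and 8 of 20. They included CXCL11 (1.60 without apigenin and 0.09 with it, interaction -1.51, adjusted p = 0.0342), MMP9 (1.38 and -0.01, interaction -1.39, adjusted p = 0.0342) and the IL-10 family cytokine IL24 (1.48 and 0.01, interaction -1.47, adjusted p = 0.0489). IL24 was already lower with apigenin, at 2.79 ± 0.12 against 3.85 ± 0.23 in untreated cells. CNTNAP1, an axonal adhesion protein, differed by 1.65 and 0.19 (interaction -1.46, adjusted p = 0.0489), and CLDN1 by 1.82 and 0.71 (interaction -1.12, adjusted p = 0.0471). The unnamed locus LOC100287834 differed by 1.59 and -0.92 (interaction -2.51, adjusted p = 0.0463). VIPR1, a receptor for vasoactive intestinal peptide, fell by 1.5 on the log2 scale with TNFα alone, from 6.28 ± 0.12 to 4.78 ± 0.07. On the apigenin arrays it already read 4.81 ± 0.22, and with both 4.48 ± 0.07 (interaction 1.18, adjusted p = 0.0463).

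Of 71 genes called with TNFα alone at 2-fold or more, 32 differed by less than 0.5 on the log2 scale with apigenin present, 24 that were higher and 8 that were lower with TNFα alone. Besides C3, CXCL11 and CNTNAP1 they included IL32, an inflammatory cytokine that read 2.91 ± 0.28 and 4.47 ± 0.27 without apigenin and 2.95 ± 0.09 and 3.25 ± 0.14 with it. CXCL10 read 1.57 ± 0.28 and 3.22 ± 0.49 without apigenin and 1.58 ± 0.04 and 1.82 ± 0.18 with it. GPRC5B, an orphan receptor, differed by 1.87 without apigenin and by 0.46 with it. None of these 3 was called in the interaction (adjusted p = 0.131, 0.313 and 0.192). The sugar transporter SLC2A12 fell with TNFα alone, from 4.69 ± 0.54 to 3.16 ± 0.40, and read 2.29 ± 0.16 with apigenin and 2.37 ± 0.29 with both (interaction 1.61, adjusted p = 0.395). CTSS, a lysosomal protease of antigen presentation, differed by 2.31 without apigenin and 0.55 with it (interaction -1.76, adjusted p = 0.117). As the 71 genes were picked by their size without apigenin, smaller differences with it are partly set by that choice. SLC2A12 already read near the array medians with apigenin, where a further fall may not show.

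Counted over whole lists, fewer members were called with apigenin in most of the inflammatory groups, as was so over all genes, where the share called higher was 0.209% with apigenin and 0.778% without; these are counts without a test, and a fall particular to the lists was not shown. Among cytokines and growth factors 1 of 34 was called higher with apigenin and 11 without, among chemokines 1 and 5 of 24, among NF-κB target enzymes and stress genes 4 and 10 of 37, among feedback inhibitors 4 and 8 of 14, among NF-κB subunits 2 and 4 of 5. In the TNF receptor complex the counts were 4 and 3 of 17. As for the medians, NF-κB subunits had 0.85 with apigenin and 0.98 without, feedback inhibitors 0.49 and 0.76, cytokines and growth factors 0.16 and 0.31, and chemokines 0.06 and 0.19, against 0.03 and 0.02 over all genes. Since the gene lists were written with results of these data known, the counts describe them and support nothing further.

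**Figure D5:**
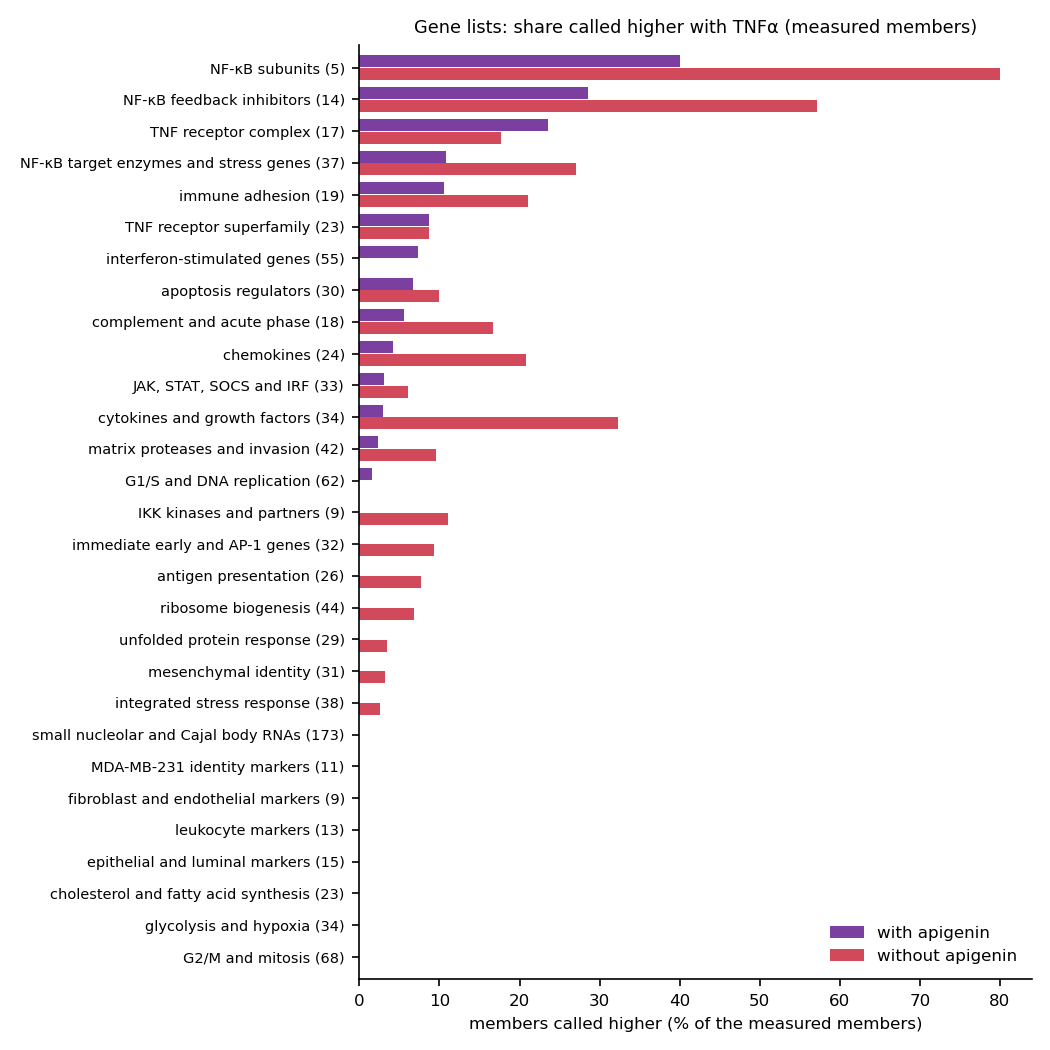
Share of the measured members of each gene list called higher with TNFα (horizontal axis, percent), in purple with apigenin present and in red without it; the number of measured members is in brackets. NF-κB subunits (2 and 4 of 5 called) and feedback inhibitors (4 and 8 of 14) have the longest bars, and the lists from small nucleolar RNAs down have none.

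The lists outside inflammation given here had no call. Over all genes 0.209% were called, so no call in lists of these sizes is near that share. The count of calls thus does not set them apart, nor does it show that none of their genes moved. None was called in either direction among 68 G2/M and mitosis genes (median 0.04), 44 ribosome biogenesis genes (0.17), 38 integrated stress response genes (0.01), 29 unfolded protein response genes (0.09), 34 glycolysis and hypoxia genes (0.00), 23 cholesterol and fatty acid synthesis genes (0.12), 31 mesenchymal genes (0.07) or 32 immediate early and AP-1 genes (0.06). In the ribosome biogenesis list, groups were apart upwards in 19 of 44 genes (10.4% of all genes) and downwards in 1 (3.77% of all genes). At an unadjusted p below 0.05 in limma, 8 of the 44 were higher (5.72% of all genes) and 0 lower (1.52% of all genes). These counts were not tested. The mitotic kinase PLK1 read 5.54 ± 0.14 with apigenin and 5.31 ± 0.19 with both, and the cell cycle inhibitor CDKN1A 5.54 ± 0.06 and 5.53 ± 0.13. Among the 173 small nucleolar RNAs none was called and the median was -0.23; their array medians were 6.34, 5.77 and 6.09 with apigenin and 5.86, 5.85 and 5.90 with both, and 26 genes were called in all when that median entered the fit. The lowest adjusted p among genes that read lower with both was 0.0954, for C10orf105 (-0.69, SE 0.14), a gene at 2.12 ± 0.30 with apigenin. The growth factor BMP4, which fell with TNFα alone by 0.81 on the log2 scale, read 8.10, 7.95 and 8.07 with apigenin and 7.44, 7.64 and 7.59 with both (-0.48, SE 0.10, adjusted p = 0.121), groups that did not overlap.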

How the data were processed

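The deposited table held log2 expression values per probe set, which per the submitters' processing notes came from Affymetrix Expression Console (version, algorithm, settings and genome build: not given in the sources used here). Probe sets with exactly 1 symbol in the platform's probe table were used (1842 had several and 27904 none here), with 22569 symbols looked up by gene ID (90 changed). A probe set was kept if it reached the 25th percentile of its array, 1.597 to 1.645, on at least 3 arrays (21895 kept); for the 549 genes with several, the highest mean was taken. The model had 4 group means over the 12 arrays (limma 3.58.1, R 4.3.3; lmFit, contrasts.fit, eBayes; 8 residual degrees of freedom), with Benjamini-Hochberg adjustment over 20572 genes; every adjusted p is from this fit, and the interaction is the TNFα response with apigenin minus that without. The model was also run on simulated data with independent noise on each array and no effect shared by replicate number. That run says nothing about such an effect. With 3 arrays a group the number of arrays limits precision, and an exact test could not go below 0.1.

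Genes named are the 20 largest called changes with groups apart in each direction (without small, antisense or provisional symbols), up to 6 called members of each list, a panel of 31 measured genes, all interaction calls, and up to 8 genes called 2-fold with TNFα alone but under 0.5 with apigenin; other names are list members or genes next to a threshold, chosen after their values were seen. The values of 1 called gene are not reported here. The members, gene lists and rule were chosen with earlier results of these data known. Alternatives were quantile normalisation, other filters, the mean over probe sets, the compared arrays only, trended and robust variance, a replicate block, a small nucleolar RNA covariate, and leaving out arrays.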

Additional observations from a re-analysis of the deposited data

Results flagged for a closer look

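The TNFα response differed between cells with and without apigenin, by the interaction test of limma over 20572 genes, in 11 genes, given here as the response with apigenin minus the response without it. IL1A had -3.57, LOC100287834 -2.51, C3 -2.29, CXCL8 -2.09, CXCL11 -1.51, IL24 -1.47, CNTNAP1 -1.46, MMP9 -1.39 and CLDN1 -1.12. VIPR1 had 1.18 and SAMD9L 1.37. IL1A and C3 kept the call in all 20 alternatives, CXCL8 in 10 and the other 8 genes in 4 to 8. LOC100287834 read 9.64, 9.38 and 8.92 in untreated cells, 10.86, 10.42 and 11.44 with TNFα, 10.38, 10.37 and 9.75 with apigenin and 9.59, 9.29 and 8.88 with both, with an SD within a group of 0.36 to 0.51.

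Probe sets without a gene symbol here entered no comparison of the report. Fitted with the same model, 21317 of them passed the filter; 2 were called higher with both agents than with apigenin and 1 lower, while none of 1719 probe sets with several symbols was called. Probe set 16730522 read 5.36, 5.98 and 5.49 with apigenin and 8.01, 8.15 and 8.14 with both (2.49, SE 0.17, adjusted p = 0.00043), a difference close to that of TNFAIP3. Probe set 17120318 differed by 0.97 (SE 0.11, adjusted p = 0.0304). Probe set 16993401 was lower, at 3.13, 3.51 and 3.15 with apigenin and 1.20, 1.61 and 1.84 with both (-1.72, SE 0.20, adjusted p = 0.0304), and read 1.39 to 1.83 in untreated cells and 2.48 to 2.96 with TNFα alone. Their genes are not named in the tables used here.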

How the results depend on the processing

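None of the 43 called genes changed sign under any alternative. For both agents against apigenin (43 calls), the count was 21 with only the 6 compared arrays, 26 with the small nucleolar RNA covariate, 100 with the replicate block, 15 to 31 when 1 array was left out, and 15 without the 4 arrays numbered 3 (added after the values were seen). Other settings gave 43 to 61, with 41 of the 43 shared under quantile normalisation. For TNFα alone (205) the count was 73 with only its 6 arrays, 632 with the block, 98 to 314 when 1 array was left out, and 85 without the arrays numbered 3. For the interaction (11) it was 3 with trended and robust variance, 5 with the covariate, 2 to 6 when 1 array was left out, and 2 without the arrays numbered 3. Fewer arrays leave fewer residual degrees of freedom; otherwise the cause was not tested.

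The replicate numbers are not stated to pair the samples. Between the apigenin and combined groups, deviations of same-numbered arrays correlated at 0.074, 0.238 and 0.307, and all 6 arrays correlated best with their own number, a hint from the data and not the design. The block called 99 genes higher, all 43 among them, and 1 lower, NDUFB7. Among genes given above as not passing, it called NFKB2, CXCL1, CYLD, IL1A, PARP14 and SAMD9L for both agents against apigenin. BMP4 was called lower with quantile normalisation and with trended and robust variance, beside SLC50A1 and C10orf105. Signal over background was not analysed here, and differences of genes near the lower end of the scale can understate a change in RNA.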
